A study of Mus musculus with 16 samples.

Results

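The mouse Hoxb cluster genes are the 10 protein-coding genes Hoxb1 to Hoxb9 and Hoxb13. They were taken by gene name from the deposited expression table, and all 10 were found among its 56748 rows. RNA had been sequenced from 2 body regions of embryos at stage E11.5, in 4 groups of 4 libraries. The groups were the trunk of Ednrb-/- embryos, the trunk of wild-type (Ednrb+/+, here WT) embryos, the caudal region of Ednrb-/- embryos and the caudal region of WT embryos. Ednrb encodes the endothelin receptor B, which migrating melanoblasts and enteric neural crest cells need, and the study asked about tissue surroundings in the uneven white spotting of mice without it. The sources used here give neither the Ednrb allele nor the strain, nor whether a library came from 1 embryo or a pool, nor which embryo gave which regions. The titles call the libraries of a group biological replicates, and the p-values measure the spread between them.

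Hox genes encode homeodomain transcription factors that give cells of the embryo their position along the head-to-tail axis. Within a cluster their order on the chromosome matches the order in which they are switched on and the order of their anterior borders. In the Hoxb cluster Hoxb1 is the earliest and most anterior gene, used in the hindbrain and, before that, in the epiblast and tail end of the embryo. Hoxb9 reaches its border in the thoracic region, and Hoxb13 is the last gene, used in the tail bud. Hox proteins bind DNA with cofactors of the Pbx and Meis families. Retinoic acid, Cdx factors and 2 microRNA genes inside the cluster are known to act on its genes.

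In the deposited table the cluster spans 173.9 kb of chromosome 11 (mm39), from 96085142 to 96259082. All 10 genes lie on the plus strand, in the order Hoxb13, Hoxb9, Hoxb8, Hoxb7, Hoxb6, Hoxb5, Hoxb4, Hoxb3, Hoxb2 and Hoxb1. A gap of 74.01 kb separates Hoxb13 from Hoxb9. A further 10 rows of the table lie within the span, among them 2 microRNA hairpins, Mir196a-1 and Mir10a. Antisense transcripts overlap 4 members: Hoxb5os lies over Hoxb6 and Hoxb5, and Hoxb3os over Hoxb3 and Hoxb2, while Gm11536 lies within Hoxb3. The sources used here do not say whether reads were counted by strand, and the values of these overlapping genes are uncertain to that extent.

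Libraries held 34883821 to 43444905 reads in listed genes. The targeted gene, Ednrb, lay at 1.59 to 4.80 FPKM (fragments counted per kilobase and corrected for depth, as the authors deposited them) in the Ednrb-/- libraries and at 26.2 to 41.8 FPKM in the WT libraries. Hox genes of paralog numbers 10 to 12, which belong to the lumbar, sacral and tail levels, were at a summed level of 10.7 to 26.0 FPKM in Ednrb-/- trunk against 212 to 233 FPKM in Ednrb-/- caudal libraries, and of 13.5 to 51.9 FPKM in WT trunk against 248 to 279 FPKM in WT caudal libraries. Of the limb genes Tbx4, Pitx1 and Tbx5, 3 of 3 were higher in Ednrb-/- than in WT caudal libraries. Over all genes tested, 21.7% were higher there at an adjusted p under 0.05 (limma). WT caudal values were spread, at 2.071 ± 1.513 FPKM for Tbx4 and 5.139 ± 3.798 FPKM for Pitx1 (SD). In Ednrb-/- caudal libraries these were at 8.766 ± 1.75 and 10.6 ± 1.474 FPKM. Tbx5 was low, at 0.9011 FPKM in Ednrb-/- and 0.3302 FPKM in WT caudal libraries (limma, adjusted p = 0.0428). In 3 libraries, replicate 3 of the Ednrb-/- trunk, replicate 3 of the Ednrb-/- caudal and replicate 2 of the WT caudal group, Xist, which is transcribed from the inactive X chromosome of female cells, and Ddx3y, a gene of the Y chromosome, were both at 5 FPKM or more. These 3 libraries thus held markers of both sexes, and whether they were pools is not stated. Calls that change without these 3 are given beside the results. Of the 10 Hoxb genes, 9 had at least 100 reads in each of the 16 libraries, from 100 to 512 for Hoxb1 to 3972 to 11436 for Hoxb9. Among these 9, counting error weighed most on Hoxb1 in WT trunk libraries, with 100 to 125 reads. Hoxb13 had 0 reads in all 8 trunk libraries and entered the tests through its caudal values alone.

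Levels per length differed widely along the cluster. Hoxb9 was the highest gene in each group, at 103.1 ± 4.78 FPKM in Ednrb-/- trunk, 83.1 ± 14.9 FPKM in WT trunk, 47.1 ± 3.72 FPKM in Ednrb-/- caudal and 63.7 ± 8.73 FPKM in WT caudal libraries (SD, n = 4 each). Hoxb6 came next in each group and Hoxb4 followed Hoxb7 or Hoxb8 in each. In Ednrb-/- trunk libraries the order of mean levels was Hoxb9, Hoxb6, Hoxb8, Hoxb7, Hoxb4, Hoxb3, Hoxb5, Hoxb2, Hoxb1 and Hoxb13. The order was the same in WT trunk libraries except that Hoxb5 and Hoxb3 changed places. In either trunk group the library ranges of Hoxb6 and Hoxb8, and those of Hoxb3 and Hoxb5, overlapped, while all other neighbours in the order were apart. In caudal libraries Hoxb7 and Hoxb8 overlapped in both genotypes. The lowest places differed between the caudal groups, with Hoxb1 above Hoxb2 in all Ednrb-/- caudal libraries and overlapping it in WT caudal libraries.

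The summed FPKM of the 10 genes was 253 ± 5.65 in Ednrb-/- trunk, 220.3 ± 30.8 in WT trunk, 164 ± 5.83 in Ednrb-/- caudal and 199 ± 22.7 in WT caudal libraries (SD, n = 4 each). Hoxb9 made up 40.8% ± 2.00 of that sum in Ednrb-/- trunk and 37.6% ± 2.06 in WT trunk libraries, and 28.8% ± 1.43 in Ednrb-/- caudal and 31.9% ± 1.05 in WT caudal libraries. Hoxb1 made up 1.17% ± 0.11 in Ednrb-/- trunk and 0.556% ± 0.0581 in WT trunk libraries, and 3.56% ± 0.214 in Ednrb-/- caudal and 1.92% ± 0.429 in WT caudal libraries. The ratio of Hoxb9 to Hoxb1 averaged 35.2 in Ednrb-/- trunk and 68.4 in WT trunk libraries. It averaged 8.11 in Ednrb-/- caudal and 17.3 in WT caudal libraries. Across libraries this ratio ran from 28.9 to 40.2 in Ednrb-/- trunk against 58.6 to 83.2 in WT trunk, and from 7.34 to 9.02 in Ednrb-/- caudal against 12.7 to 21.2 in WT caudal libraries, so within each region the genotypes did not overlap.

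**Figure D1:**
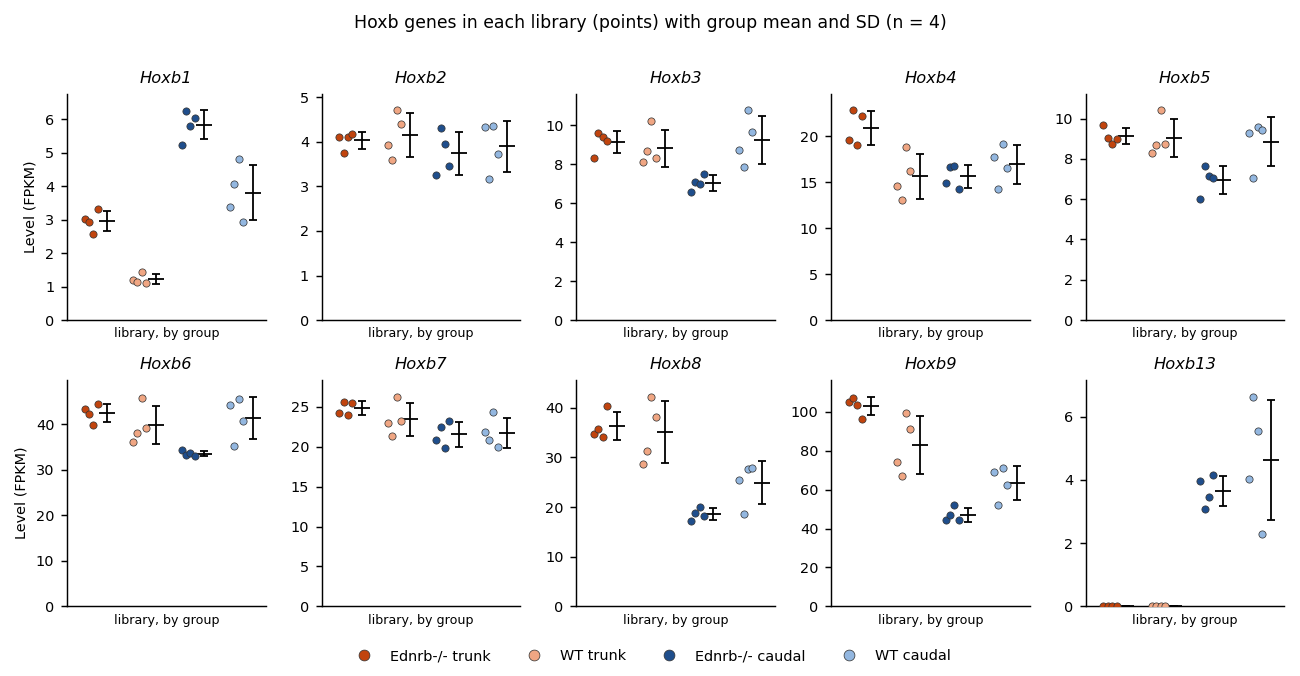
Level in FPKM (vertical axes, from 0) of the 10 Hoxb genes in each of the 16 libraries (points), by group, with the group mean and SD beside the points. Hoxb1 is above WT in all Ednrb-/- libraries of either region, Hoxb8 and Hoxb9 are high in trunk, and Hoxb13 is at 0 in all 8 trunk libraries.

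The first question was how the cluster differed between Ednrb-/- and WT embryos in the trunk. Since strain and embryo source are not given, a difference of genotype cannot be told apart from one of strain or litter. On log2(FPKM + 0.5), 3 of 10 Hoxb genes were higher in Ednrb-/- than in WT trunk libraries and 0 were lower at an adjusted p under 0.05 (limma, Benjamini-Hochberg over 17205 genes). At an unadjusted p under 0.05 the counts were also 3 and 0, and voom on whole reads recovered from the table called 3 and 0. Over all genes tested, 12.2% were called higher and 13% lower at the adjusted threshold. The share over all genes at an unadjusted p under 0.05 was not counted. With voom, 1729 of 17205 genes were called higher and 2965 lower. With voom the higher calls made up 36.8% of all calls, against 48.4% on the FPKM scale. The 3 genes were Hoxb1, Hoxb4 and Hoxb9. Their neighbours in between did not pass the test, and the median log2 difference of the 10 genes was 0.07, against 0.004 over all genes tested. In bulk tissue, more cells of a type and more RNA per cell cannot be told apart.

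Hoxb1, which sets the identity of a hindbrain segment and marks early posterior tissue, changed most. Its levels in Ednrb-/- trunk libraries were 3.01, 2.91, 2.58 and 3.33 FPKM, against 1.199, 1.145, 1.426 and 1.098 FPKM in WT trunk libraries. The groups did not overlap, and the lowest Ednrb-/- library stood above the highest WT library. Hoxb1 rose by 1.01 ± 0.11 on the log2 scale (SE; 95% interval 0.77 to 1.25; adjusted p = 4.09e-05), about 2.01-fold. Leaving out any 1 library kept it between 0.96 and 1.07. Hoxb1 is not next to another member that changed in the same way, since Hoxb2 and Hoxb3 beside it differed by -0.03 and 0.05 in the same libraries.

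Hoxb4, a gene of the lower hindbrain and neck that retinoic acid switches on, had 19.6, 22.8, 19.0 and 22.2 FPKM in Ednrb-/- trunk libraries, against 14.6, 13.1, 18.8 and 16.2 FPKM in WT trunk libraries. The groups were close but did not overlap. The difference was 0.41 ± 0.105 (SE; adjusted p = 0.0101). It missed the threshold when genes were not filtered for low levels (adjusted p = 0.0527).

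Hoxb9, which patterns the ribs and thoracic motor columns, had 105, 107, 104 and 96.3 FPKM in Ednrb-/- trunk libraries, against 74.3, 67.2, 99.4 and 91.4 FPKM in WT trunk libraries. WT replicate 3 lay within the range of the Ednrb-/- libraries. The difference was 0.33 ± 0.11 (SE; adjusted p = 0.0467). That call rested close to the threshold: leaving out 1 library ended it in 6 of 8 cases, with adjusted p from 0.0147 to 0.15, and it was lost with TPM scaling (0.0658), quantile normalization (0.101), no filter (0.19), the 2 trunk groups alone (0.0631) and without the 3 libraries named above (0.0553).

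The other 7 genes did not pass the test in the trunk. Hoxb2, Hoxb3, Hoxb5, Hoxb6, Hoxb7 and Hoxb8 differed by -0.032 to 0.095, with 95% intervals that reached no further than -0.246 and 0.325. The interval of Hoxb8 was -0.209 to 0.325 (log2), with 34.7, 35.8, 34.1 and 40.3 FPKM in Ednrb-/- trunk and 28.8, 31.4, 42.3 and 38.2 FPKM in WT trunk libraries. WT trunk libraries spread more than Ednrb-/- trunk libraries for this gene and for Hoxb9. No fold is given for Hoxb13, which was at 0 in both trunk groups.

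In the caudal region the genotype difference ran mostly the other way. There 1 of 10 Hoxb genes was higher in Ednrb-/- than in WT libraries and 5 were lower, against 21.7% called higher and 19.9% called lower over all genes tested. Hoxb1 rose, while Hoxb3, Hoxb5, Hoxb6, Hoxb8 and Hoxb9 fell. The median of the 10 log2 differences was -0.26, against 0.0068 over all genes tested. All 5 falls held with TPM scaling, voom on whole reads, median-of-ratios scaling and quantile normalization, although TPM scaling and voom lowered the share of higher calls over all genes to 30.6% and 37%, against 52.1% on the FPKM scale.

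Hoxb1 had 5.24, 6.24, 5.80 and 6.03 FPKM in Ednrb-/- caudal libraries, against 3.38, 4.08, 4.80 and 2.94 FPKM in WT caudal libraries. As in the trunk, the groups did not overlap. It rose by 0.575 ± 0.11 (SE; adjusted p = 0.000893), about 1.49-fold, and was between 0.47 and 0.68 with any 1 library left out.

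Hoxb9 fell by 0.42 ± 0.11 (SE; adjusted p = 0.00732). It had 44.7, 47.2, 52.4 and 44.3 FPKM in Ednrb-/- caudal libraries, against 69.2, 51.9, 71.3 and 62.3 FPKM in WT caudal libraries. The groups overlapped through WT replicate 2 alone, whose level lay just under that of Ednrb-/- replicate 3.

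Hoxb8, a gene of the spinal cord and of blood cell precursors, had 17.2, 18.9, 20.0 and 18.1 FPKM in Ednrb-/- caudal libraries, against 25.5, 18.6, 27.6 and 27.8 FPKM in WT caudal libraries. WT replicate 2 was again the one inside the Ednrb-/- range. Hoxb8 fell by 0.40 ± 0.125 (SE; adjusted p = 0.0184), a call lost without WT replicate 3 (0.055), without WT replicate 4 (0.0613) and with no filter (0.0924).

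Hoxb3, which acts in the hindbrain and pharyngeal arches, had 6.55, 7.08, 6.97 and 7.50 FPKM in Ednrb-/- caudal libraries, against 8.72, 7.84, 10.8 and 9.63 FPKM in WT caudal libraries. Every Ednrb-/- library lay below every WT library. The gene fell by 0.36 ± 0.09 (SE; adjusted p = 0.00314).

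Hoxb6, expressed in lateral mesoderm and the spinal cord, had 34.3, 33.2, 33.7 and 33.0 FPKM in Ednrb-/- caudal libraries, against 44.3, 35.1, 45.6 and 40.7 FPKM in WT caudal libraries. The groups did not overlap, and the Ednrb-/- libraries lay close together (SD 0.576 FPKM, against 4.68 FPKM in WT libraries). Hoxb6 fell by 0.29 ± 0.08 (SE; adjusted p = 0.006).

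Hoxb5, which helps to place the shoulder girdle, fell by 0.32 ± 0.09 (SE; adjusted p = 0.0126), with 6.00 to 7.63 FPKM in Ednrb-/- caudal and 7.03 to 9.60 FPKM in WT caudal libraries. WT replicate 2 was the single WT library within the Ednrb-/- range. The call was lost with no filter (adjusted p = 0.0599).

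The other 4 genes did not pass the test. Hoxb7, whose promoter is widely used to mark the nephric duct, had 20.8, 22.5, 19.8 and 23.3 FPKM in Ednrb-/- caudal and 21.8, 20.9, 24.3 and 20.0 FPKM in WT caudal libraries, a log2 difference of -0.01 with a 95% interval of -0.154 to 0.135. That interval does not reach the falls measured for the genes on either side, Hoxb6 and Hoxb8. Hoxb2 and Hoxb4 differed by -0.05 and -0.11. Hoxb13 differed by -0.23 with a wide interval, -0.66 to 0.20, since WT caudal libraries ran from 2.30 to 6.63 FPKM and Ednrb-/- caudal libraries from 3.08 to 4.14 FPKM. Without WT replicate 4, its lowest library, Hoxb13 was called lower (-0.49, adjusted p = 0.00973).

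**Figure D2:**
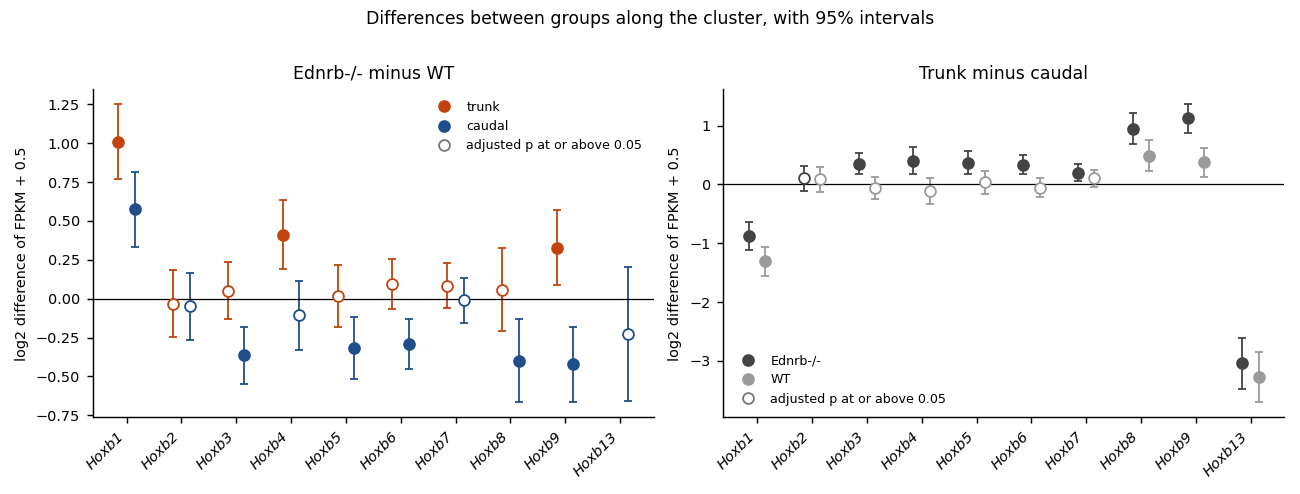
Log2 difference of FPKM + 0.5 (vertical axes) for each Hoxb gene, Ednrb-/- minus WT in trunk and caudal libraries (left) and trunk minus caudal in Ednrb-/- and WT libraries (right), with 95% intervals and filled points where the adjusted p was under 0.05. Hoxb1 is the only gene above 0 in both genotype comparisons with filled points, and Hoxb8 and Hoxb9 stand above 0 in both region comparisons.

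Whether the genotype difference itself differed between the regions was tested as an interaction, the Ednrb-/- minus WT difference in trunk minus that in caudal libraries. It was called above 0 for 3 of 10 Hoxb genes and below 0 for 0, against 3.78% and 2.98% of all genes tested (limma). At an unadjusted p under 0.05, 7 were above 0 and 0 below, but the share over all genes at that looser threshold was not counted. With voom, 5 were called above 0 and 0 below, against 1187 and 447 of 17205 genes. Hoxb9 had the largest value, 0.75 ± 0.16 (SE; 95% interval 0.41 to 1.09; adjusted p = 0.0153). Hoxb4 had 0.52 ± 0.15 (adjusted p = 0.0486) and Hoxb6 had 0.39 ± 0.11 (adjusted p = 0.0428). The Hoxb9 interaction held with any 1 library left out (0.65 to 0.84, adjusted p from 0.00747 to 0.0362) and was lost with no filter (0.0833).

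The calls for Hoxb4 and Hoxb6 lay near the threshold and were lost in 13 and 14 of 16 leave-one-out fits. Hoxb3 just missed it (0.41, adjusted p = 0.0525), and Hoxb1, Hoxb5 and Hoxb8 had 0.43, 0.34 and 0.46 with adjusted p of 0.116, 0.139 and 0.133. Without Hoxb13, all 9 values were above 0, from 0.02 for Hoxb2 to 0.75 for Hoxb9, with a median of 0.41 against -0.0072 over all genes tested. The Hoxb13 value, 0.23, only restates its caudal difference, since it was at 0 in both trunk groups. The count was 6 without WT caudal replicate 2, 4 without WT trunk replicate 3, and 1 in 12 of the 16 leave-one-out fits. It was 5 without the 3 libraries named above, when Hoxb5 and Hoxb8 were also called (adjusted p = 0.0408 and 0.0346). It was 5 with TPM scaling and with voom, and with these the share of all calls that were above 0 was 79.1% and 72.6%, against 55.9% on the FPKM scale.

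The study's second axis was position. Within Ednrb-/- embryos 7 of 10 Hoxb genes were higher in trunk than in caudal libraries and 2 were lower, against 17.3% and 18.9% of all genes tested. Within WT embryos 2 were higher and 2 lower, against 9.69% and 8.35%. Without Hoxb13, which had to differ because it passed the filter through the caudal groups, the counts were 7 higher and 1 lower of 9 in Ednrb-/- and 2 higher and 1 lower of 9 in WT embryos. The medians over these 9 genes were 0.355 and 0.034 (log2, trunk minus caudal), and over all genes tested -0.0122 and 0.0023. With TPM scaling, 67% of all calls between the regions of Ednrb-/- embryos were higher in trunk, against 47.8% on the FPKM scale, and the Hoxb counts were the same. Each group of libraries enters a genotype comparison and a region comparison, so these results share samples.

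Hoxb13, which in mice limits growth of the tail, marked the caudal region. It had 0 reads in each of the 4 Ednrb-/- trunk and 4 WT trunk libraries, against 3.95, 3.08, 3.44 and 4.14 FPKM in Ednrb-/- caudal and 4.02, 6.63, 5.55 and 2.30 FPKM in WT caudal libraries. A floor of 3 reads per library corresponds to 0.032 to 0.039 FPKM in the Ednrb-/- trunk and 0.031 to 0.036 FPKM in the WT trunk libraries. Mean caudal levels were therefore at least 94.1-fold higher than trunk levels in Ednrb-/- and at least 128-fold higher in WT embryos, as far as counting error goes. The fitted differences of -3.05 and -3.27 depend on the pseudocount and are no bound.

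Hoxb1, at the opposite end of the cluster, was also lower in trunk than in caudal libraries. The difference was -0.87 ± 0.11 in Ednrb-/- (adjusted p = 4.32e-05) and -1.31 ± 0.11 in WT embryos (adjusted p = 2.24e-06), and in neither genotype did the regions overlap. No other member apart from Hoxb13 was called lower in trunk.

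Hoxb8 and Hoxb9 were higher in trunk. In Ednrb-/- embryos the differences were 0.95 ± 0.125 for Hoxb8 (adjusted p = 4.93e-05) and 1.12 ± 0.11 for Hoxb9 (adjusted p = 5.03e-06), and the trunk libraries of both genes lay entirely above the caudal ones. In WT embryos the differences were 0.49 ± 0.125 (adjusted p = 0.0134) and 0.37 ± 0.11 (adjusted p = 0.0326). Both WT calls were lost with no filter (0.0698 for Hoxb8 and 0.141 for Hoxb9), with the WT groups alone (0.0608 and 0.103) and without the 3 libraries named above (0.0516 and 0.126). The Hoxb9 call in WT was also lost without trunk replicate 3 (0.102), trunk replicate 4 (0.0944), caudal replicate 2 (0.11) or caudal replicate 4 (0.0594).

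From Hoxb3 to Hoxb7, all 5 genes were called higher in trunk than in caudal libraries of Ednrb-/- embryos, by 0.355, 0.41, 0.37, 0.33 and 0.20, and their Ednrb-/- libraries did not overlap between regions. The smallest, Hoxb7 (adjusted p = 0.0316), was lost in 4 of 8 leave-one-out fits, with no filter (0.123) and without the 3 libraries named above (0.118). In WT embryos the same 5 genes differed by -0.06, -0.11, 0.03, -0.055 and 0.11, and none of these passed the test. Hoxb2, which acts with Hoxb1 in the hindbrain, did not pass in either genotype, with 0.10 in Ednrb-/- and 0.09 in WT embryos.

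Hoxb8 and Hoxb1, which moved in opposite directions between the regions, are 2 of the 3 members with a promoter in the RefSeq table for GRCm38.p6, and the third is Hoxb4. Their sequences of 250 bases before the start are shown because Cdx and Hox-Pbx motifs are known features of such promoters. In both, capitals mark matches on either strand to TTTAT, the core of a Cdx motif, and to TGATNNAT, a Hox-Pbx composite.
Hoxb8, chr11:96281655-96281904, plus strand: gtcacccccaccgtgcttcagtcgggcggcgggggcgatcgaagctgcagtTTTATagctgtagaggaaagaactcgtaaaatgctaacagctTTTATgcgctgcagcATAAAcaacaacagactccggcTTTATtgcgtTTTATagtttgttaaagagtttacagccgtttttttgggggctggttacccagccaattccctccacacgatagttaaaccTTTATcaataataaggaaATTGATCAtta
Hoxb1, chr11:96365508-96365757, plus strand: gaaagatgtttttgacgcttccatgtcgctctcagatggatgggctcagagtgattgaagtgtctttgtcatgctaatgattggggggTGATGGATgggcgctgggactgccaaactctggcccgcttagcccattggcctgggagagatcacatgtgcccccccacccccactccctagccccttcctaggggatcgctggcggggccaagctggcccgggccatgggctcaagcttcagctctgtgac

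The Hoxb8 promoter held 6 matches to TTTAT, 5 of them on the plus strand, and 0.393% of 32851 mouse promoters of the same length held as many or more, while 37.3% held at least 1. The Hoxb1 promoter held 0. Each held 1 match to TGATNNAT, found in 7.68% of all promoters, and neither motif overlapped the other. The Hoxb1 match, TGATGGAT, begins at position -162 from the start. The Hoxb4 promoter had 0 matches to both motifs and 1 to AGGTCA, a core binding motif of retinoic acid receptors, which 14% of promoters hold. GC content was 44.4% for Hoxb8, 59.2% for Hoxb1 and 58.0% for Hoxb4, against a median of 52.4%. These matches describe the letters of the window and are not binding measurements.

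The noncoding rows of the cluster did not all follow their neighbours. In the gap between Hoxb13 and Hoxb9 lie the lncRNA Gm53 and, within it, the hairpin of Mir196a-1. Gm53 had 5.71, 5.68, 4.22 and 5.93 FPKM in Ednrb-/- trunk libraries, against 14.1, 14.7, 14.6 and 14.2 FPKM in Ednrb-/- caudal libraries. In WT embryos it had 5.99, 6.13, 5.81 and 4.86 FPKM in trunk libraries, against 12.9, 12.7, 13.8 and 12.5 FPKM in caudal libraries. It was lower in trunk by 1.35 ± 0.085 in Ednrb-/- (adjusted p = 5.08e-08) and by 1.12 ± 0.085 in WT embryos (adjusted p = 5.85e-07), the direction opposite to that of Hoxb9, its next neighbour.

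Reads over the Mir196a-1 hairpin followed the same direction, with 18.0 ± 3.43 FPKM in Ednrb-/- trunk against 51.0 ± 5.98 FPKM in Ednrb-/- caudal libraries, and 16.2 ± 4.14 FPKM in WT trunk against 39.2 ± 3.48 FPKM in WT caudal libraries (SD, n = 4 each). The trunk minus caudal differences were -1.49 ± 0.155 in Ednrb-/- (adjusted p = 6.64e-06) and -1.275 ± 0.155 in WT embryos (adjusted p = 5.22e-05). These are reads of an RNA library over a 102-base hairpin that lies within Gm53, 48 to 211 per library, and they do not measure the mature microRNA. Between genotypes the Ednrb-/- caudal libraries lay above the WT caudal libraries without overlap, but the difference of 0.37 missed the threshold (adjusted p = 0.067).

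The mature products of both hairpins are shown because they are known to act on Hox messages, miR-196a in mice by cleaving the Hoxb8 message. Capitals mark the seed, bases 2 to 8, as given by RefSeq.
miR-196a-5p: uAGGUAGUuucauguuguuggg
miR-10a-5p: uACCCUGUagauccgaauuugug
Each seed occurs in 2 of 1679 mature mouse sequences, AGGUAGU in miR-196a-5p and miR-196b-5p and ACCCUGU in miR-10a-5p and miR-10b-5p, of which miR-196b lies in the Hoxa and miR-10b in the Hoxd cluster. The 22 bases of the Hoxb8 3′ UTR that pair best with miR-196a-5p are shown next, from GENCODE transcripts on GRCm38, with the bases opposite the seed in capitals.
Hoxb8 site: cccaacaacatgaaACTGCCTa
Of 22 positions, 21 formed Watson-Crick pairs and 1 a G:U pair, at position 5 counted from the 5′ end of the microRNA. Because of that G:U pair, a search for exact matches to the seed in the Hoxb8 3′ UTR found 0. No other member had more than 14 Watson-Crick pairs at its best site. Exact matches to the miR-196a-5p seed occurred once each in the 3′ UTRs of Hoxb1, Hoxb6 and Hoxb7, where 4.88%, 2.62% and 2.14% of mouse 3′ UTRs of similar length hold any. The site in Hoxb7 reads:
Hoxb7 site: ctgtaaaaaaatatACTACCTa
The miR-10a-5p seed matched the 3′ UTR of Hoxb3 alone, with 1 match, and 13.3% of 3′ UTRs of similar length hold any.

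Set beside these sites, Hoxb8 was lower in caudal libraries, where the Mir196a-1 row was higher, in both genotypes. Hoxb6 and Hoxb7, which have an exact seed match, were called lower in caudal than in trunk libraries in Ednrb-/- embryos and not called in WT embryos, and Hoxb1, which also has one, was higher in caudal libraries. Hoxb3, Hoxb4 and Hoxb5 have no exact match and were likewise called lower in caudal libraries in Ednrb-/- embryos alone. Their trunk minus caudal differences there were 0.355, 0.41 and 0.37, against 0.33 for Hoxb6 and 0.20 for Hoxb7. Of the others without a match, Hoxb2 was not called and Hoxb13 was higher in caudal libraries. Hoxb9 has no exact match and was, like Hoxb8, higher in trunk than in caudal libraries, and across the 16 libraries these neighbours were closely alike (Pearson r = 0.95 on the log2 scale, a description over libraries that share group, region and depth). The part of the microRNA in these levels was not tested.

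**Figure D3:**
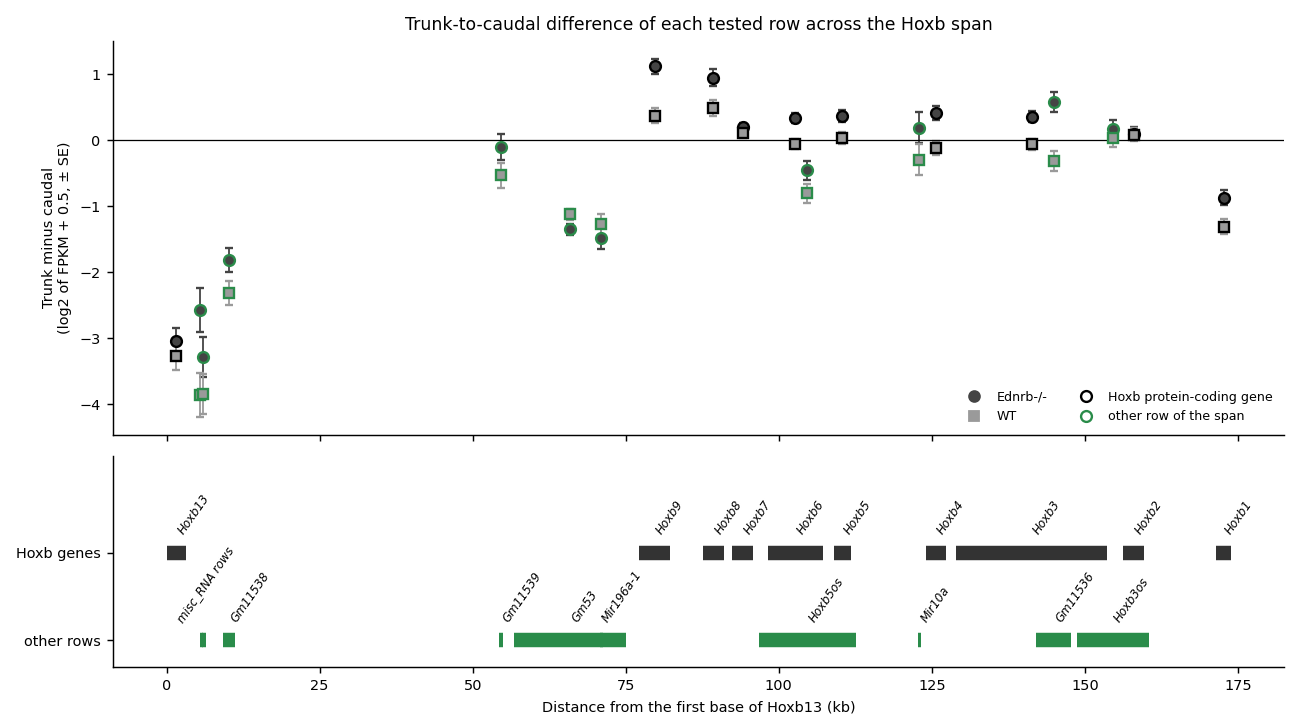
Trunk minus caudal difference (log2 of FPKM + 0.5, ± SE, upper panel) of each tested row of the Hoxb span by its distance in kb from the first base of Hoxb13, in Ednrb-/- (dark circles) and WT embryos (light squares), above a map of the rows to scale. Hoxb13 (a fitted value against trunk libraries at 0), the rows near it, Gm53, Mir196a-1, Hoxb5os and Hoxb1 lie below 0, and Hoxb9 and Hoxb8 are the highest points of either genotype.

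Near Hoxb13, the lncRNA Gm11538 had 0 reads in all 8 trunk libraries, against 1.06 to 1.46 FPKM in Ednrb-/- caudal and 1.04 to 2.78 FPKM in WT caudal libraries. In the caudal region it was called lower in Ednrb-/- embryos (-0.51, adjusted p = 0.0335), as was the unnamed misc_RNA row ENSMUSG00002075973 (-1.18, adjusted p = 0.00914). That row had few reads, 6 to 13 in Ednrb-/- caudal and 12 to 35 in WT caudal libraries, and its groups overlapped. The misc_RNA row beside it, ENSMUSG00002076964, was not called (-0.49, adjusted p = 0.219). Hoxb5os, antisense to Hoxb5 and Hoxb6, had 36.3, 39.5, 35.6 and 39.9 FPKM in Ednrb-/- trunk libraries, against 21.5, 19.1, 31.9 and 25.2 FPKM in WT trunk libraries. It rose by 0.645 ± 0.14 there without overlap (adjusted p = 0.00452), while Hoxb5 and Hoxb6 on the other strand differed by 0.017 and 0.095.

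Between regions Hoxb5os was lower in trunk, with trunk minus caudal differences of -0.45 in Ednrb-/- (adjusted p = 0.023) and -0.80 in WT embryos (adjusted p = 0.00134). The genes it overlaps, Hoxb5 and Hoxb6, were called higher in trunk in Ednrb-/- embryos (0.37 and 0.33). In WT embryos neither was called (0.03 and -0.055). Gm11536, antisense within Hoxb3, moved in the direction of Hoxb3: it fell by 0.62 ± 0.15 in Ednrb-/- caudal libraries (adjusted p = 0.00391) and had an interaction of 0.89 ± 0.21 (adjusted p = 0.0239). Hoxb3os and Mir10a, of which Mir10a had 24 to 62 reads per library, passed no test in the 5 comparisons. The protein-coding neighbours outside the span, Ttll6 and Skap1, were near 0.

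**Figure D4:**
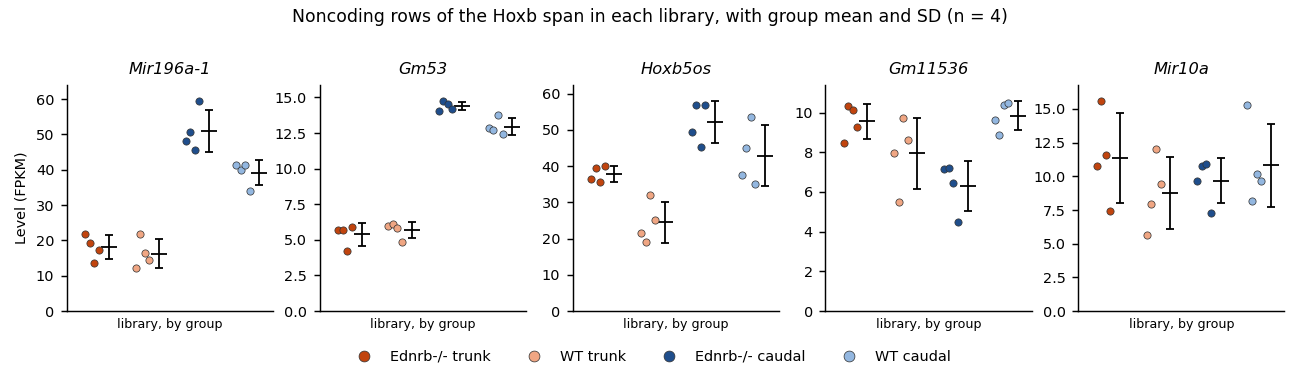
Level in FPKM (vertical axes, from 0) of 5 noncoding rows of the Hoxb span in each of the 16 libraries (points), by group, with the group mean and SD. Gm53 and Mir196a-1 are higher in caudal than in trunk libraries, and all Ednrb-/- trunk libraries lie above all WT trunk libraries for Hoxb5os.

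The 21 Hox genes of the other clusters that share a paralog number with a Hoxb gene were called higher in Ednrb-/- trunk for 8 and lower for 1, and in the Ednrb-/- caudal region higher for 4 and lower for 6. The caudal counts are near the 21.7% and 19.9% called over all genes, and the trunk count of higher genes is above the 12.2% there. Hoxd1, which shares its number with Hoxb1, rose by 0.935 in the trunk (4.41 ± 0.478 FPKM in Ednrb-/- and 2.08 ± 0.335 FPKM in WT libraries) and by 0.40 in the caudal region (adjusted p = 4e-05 and 0.0061). The paralogs of Hoxb4, named after their values were seen, were called higher in the trunk as well, with Hoxd4 at 0.54, Hoxa4 at 0.32 and Hoxc4 at 0.28.

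In the caudal region, Hoxa4 and Hoxc4 fell (-0.42 and -0.26), Hoxb4 and Hoxd4 were not called (-0.11 and 0.07), and Hoxa5 fell with Hoxb5 (-0.33, adjusted p = 0.00133). Interactions were called above 0 for 6 of the 21 genes and below 0 for 1, against 3.78% and 2.98% of all genes tested. Among those above 0 were Hoxa4 (0.74, adjusted p = 0.0107), Hoxd3 (0.61) and Hoxd4 (0.47). The paralogs of Hoxb13 did not share 1 direction in the caudal region, where Hoxa13 and Hoxd13 rose by 0.52 each and Hoxc13 fell by 1.02. Of the paralogs of Hoxb8 and Hoxb9, named after their values were seen, Hoxc8 was higher in trunk by 2.46 in Ednrb-/- and 2.50 in WT embryos and Hoxc9 by 0.635 and 0.68, the direction of Hoxb8 and Hoxb9. Hoxd8, Hoxa9 and Hoxd9 were lower in trunk in both genotypes, the opposite direction. The difference between clusters was not tested.

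Among 18 known regulators of Hox genes, 16 were tested. In Ednrb-/- trunk libraries 9 were called higher and 1 lower, against 12.2% and 13% of all genes tested. In Ednrb-/- caudal libraries 9 were called higher and 2 lower, against 21.7% and 19.9%. Lin28a, an RNA-binding protein of early embryonic tissue, had 6.15 ± 1.495 FPKM in Ednrb-/- trunk and 1.52 ± 0.361 FPKM in WT trunk, and 20.2 ± 8.96 FPKM in Ednrb-/- caudal and 3.601 ± 0.718 FPKM in WT caudal libraries (SD, n = 4 each). It rose by 1.71 in the trunk (adjusted p = 0.000194) and by 2.26 in the caudal region (adjusted p = 9.03e-06). Lin28b rose by 0.89 and 1.00, Nr6a1, which in mice paces the switch between trunk and tail Hox genes, by 0.59 and 0.70, and the retinoic acid receptor gene Rarb by 0.435 and 0.47. The other retinoic acid receptor genes in the list did not rise: Rarg fell by 0.41 in the trunk (adjusted p = 0.00289) and Rara by 0.385 in the caudal region (adjusted p = 0.000408). Cdx2 and Cdx4, transcription factors of the tail end that act on central Hox genes, were not called in the trunk and rose by 1.22 and 1.38 in the caudal region. Of 9 Pbx, Meis and Pknox cofactor genes, 4 rose and 0 fell in the trunk, against 12.2% and 13% of all genes tested. In the caudal region 2 rose and 1 fell, near or below the shares called over all genes (21.7% and 19.9%). Pbx2 was at 0.25 in the trunk and 0.13 in the caudal region, and Pbx3 at -0.26 in the caudal region.

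Markers of the cell types that the tissue could hold were read against the same background, 12.2% called higher and 13% lower over all genes in the trunk and 21.7% and 19.9% in the caudal region. Of 10 tail bud and presomitic genes, 5 were called higher and 0 lower in Ednrb-/- caudal libraries, their summed level was 30.4 to 57.5 FPKM in Ednrb-/- caudal and 14.0 to 41.6 FPKM in WT caudal libraries, and in trunk libraries it was 11.8 to 14.8 FPKM in Ednrb-/- and 9.37 to 11.8 FPKM in WT embryos. Cdx4 was at 0 in all Ednrb-/- trunk libraries and Cdx2 and Msgn1 in all WT trunk libraries. Of 7 neuron genes, 1 was called higher and 5 lower in Ednrb-/- caudal libraries, with sums of 132 to 213 FPKM in Ednrb-/- caudal and 258 to 349 FPKM in WT caudal libraries, which did not overlap. In trunk libraries the neuron sums were 288 to 329 FPKM in Ednrb-/- and 304 to 387 FPKM in WT embryos, with 1 gene called in each direction.

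Somite genes were called higher for 4 of 7 and lower for 1 in Ednrb-/- trunk, with sums of 98.2 to 109 FPKM in Ednrb-/- and 71.8 to 82.9 FPKM in WT trunk libraries, and higher for 2 and lower for 3 in the caudal region, with 116 to 142 FPKM in Ednrb-/- and 93.6 to 134 FPKM in WT libraries. Limb and lateral mesoderm genes were called higher for 4 of 6 and lower for 0 in Ednrb-/- caudal libraries (46.3 to 56.3 FPKM in Ednrb-/- and 23.9 to 50.1 FPKM in WT) and 0 were called in the trunk (25.5 to 28.0 FPKM in Ednrb-/- and 24.6 to 38.4 FPKM in WT). The hindlimb gene Tbx4 among them had 8.77 ± 1.75 FPKM in Ednrb-/- caudal and 2.07 ± 1.51 FPKM in WT caudal libraries. Gut endoderm genes were higher for 5 of 6 and lower for 0 in Ednrb-/- caudal libraries (35.3 to 46.8 FPKM in Ednrb-/- and 19.6 to 25.5 FPKM in WT), and higher for 2 and lower for 1 in the trunk (18.6 to 19.8 FPKM in Ednrb-/- and 14.0 to 17.6 FPKM in WT). Most of the caudal sum came from Epcam, Cldn6 and Cdh1, at 12.0, 15.7 and 8.07 FPKM in Ednrb-/- and 7.05, 6.20 and 5.36 FPKM in WT. Foxa1 and Foxa2 rose there by 0.45 and 0.76, and Sox17 was not called (0.16, limma, adjusted p = 0.143). Neural crest genes were lower for 4 of 5 in Ednrb-/- caudal libraries (20.3 to 23.2 FPKM in Ednrb-/- and 32.4 to 37.0 FPKM in WT) and for 3 in Ednrb-/- trunk libraries (24.7 to 27.0 FPKM in Ednrb-/- and 30.7 to 34.4 FPKM in WT). Neural progenitor genes were called higher for 1 of 6 and lower for 1 in each region, near those shares, with sums of 147 to 172 FPKM in Ednrb-/- caudal and 216 to 269 FPKM in WT caudal libraries, and of 219 to 233 FPKM in Ednrb-/- trunk and 255 to 342 FPKM in WT trunk libraries. The gene called lower, Fabp7, carried the largest difference in these sums. Its means were 36.6 FPKM in Ednrb-/- and 98.5 FPKM in WT caudal, and 92.3 and 182 FPKM in trunk libraries. The gene called higher was Sox1 in the caudal region and Pax6 in the trunk, and the others were not called.

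Intermediate mesoderm genes were higher for 1 of 7 and lower for 3 in Ednrb-/- trunk and higher for 1 and lower for 4 in Ednrb-/- caudal libraries. Their sums were 32.4 to 35.6 FPKM in Ednrb-/- trunk, 40.9 to 45.1 FPKM in WT trunk, 25.1 to 28.1 FPKM in Ednrb-/- caudal and 23.9 to 36.0 FPKM in WT caudal libraries. Blood genes were higher for 1 of 6 and lower for 2 in each region, with sums of 2944 to 3346 FPKM in Ednrb-/- trunk, 3890 to 5168 FPKM in WT trunk, 2971 to 4836 FPKM in Ednrb-/- caudal and 4287 to 5123 FPKM in WT caudal libraries. Of the hindbrain genes 3 were tested, and 1 was called, lower in Ednrb-/- caudal libraries, with sums of 12.5 to 13.8 FPKM in Ednrb-/- caudal and 15.5 to 16.8 FPKM in WT caudal libraries. The part of these cell types in the Hoxb levels was not tested.

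The genes outside the Hox clusters whose levels were most like those of each Hoxb gene over the 16 libraries were named by Pearson correlation of log2(FPKM + 0.5) among tested protein-coding genes, as a description of libraries that share group and region. Hoxb1 was most like Pou2f1 (r = 0.987), Greb1 (0.984) and the somite gene Meox1 (0.979). Hoxb8 was most like Pou3f3 (0.954), St8sia1 (0.95) and Nkx2-2 (0.949), and Hoxb9 most like Etv1 (0.944), Chat (0.932) and Stard8 (0.931). For Hoxb13 they were Mgat5 (0.971), Tmem30b (0.968) and Ism1 (0.962), and Hoxb6 was like Nyap2 (0.924) and Apba2 (0.923).

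For Hoxb3, Adgrb1 came first (0.913), followed by Dync1li1 (0.891) and Gmip (0.86), for Hoxb4 Dhx32 (0.894), Tm7sf2 (0.872) and Zc3h12c (0.866), and for Hoxb5 Gnaq (0.884), Mfsd2a (0.882) and Pak1 (0.88). Hoxb7 and Hoxb2, the genes that differed least between the groups, had the lowest first values, 0.808 with Gpbp1 and 0.772 with Pafah1b2. Within the cluster, neighbours ranged from r = 0.95 for Hoxb8 and Hoxb9 to -0.28 for Hoxb1 and Hoxb2. Values for Hoxb13 mostly restate the regions, since it was at 0 in 8 of 16 libraries. Hoxb1 ran opposite to Hoxb8 (-0.73).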

How the data were processed

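RNA of the 4 groups was sequenced with Illumina libraries made from total RNA, and FPKM values per gene were deposited by the authors. Per the submitters' processing notes, fastp, HISAT2 2.0.5 and featureCounts 1.5.0-p3 were used with the mm39 build. The sources used here name no strand setting, annotation release or fastp version. FPKM multiplied by gene length gave whole reads for 100% of values (within 0.01 of a read), from which the reads quoted were taken. No pair of libraries of the same group agreed within sampling noise.

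Genes that reached 0.5 FPKM in 4 or more of the 16 libraries were tested with limma 3.58.1 (R 4.3.3) on log2(FPKM + 0.5), fitted as 4 group means, with the prior variance following a trend and p-values adjusted by Benjamini-Hochberg over 17205 genes, 13365 of them protein-coding, at an adjusted p under 0.05. The pseudocount makes fold changes of low genes smaller. The fit was tested on simulated data. Alternatives were other pseudocounts, filters and scalings, only the groups compared, a replicate block, voom on whole reads, and leaving out libraries.

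Named were the 10 members, all rows of their span and the next protein-coding row on each side, the 3 genes outside the Hox clusters most correlated with each member, and up to 4 genes of each list by adjusted p; some of these are not reported here. The lists were Hox paralogs, posterior Hox genes with limb genes, Pbx, Meis and Pknox cofactors, Hox regulators and 10 sets of cell type markers. Members and lists were chosen with earlier results of these data known. Promoter and microRNA sequences come from RefSeq on GRCm38.p6 and 3′ UTRs from GENCODE M21 on GRCm38, with no coordinates converted. Tables and figures used Python 3.11.15, numpy 2.4.6 and matplotlib 3.10.9.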

Additional observations from a re-analysis of the deposited data

Results flagged for a closer look

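Among groups of 4 libraries, 2 members had a library far from the other 3, where chance gives such a library in about 1 of 20 groups. Each of the 10 members was looked at in each of the 4 groups, except Hoxb13 in trunk, where all values were 0. The 2 flags are therefore about as many as chance gives. Hoxb2 in the Ednrb-/- trunk had its lowest library at 3.755 FPKM (replicate 2), with the nearest at 4.103 FPKM, a gap of 0.836 of the whole range. Hoxb5 in the WT caudal region had its lowest library at 7.029 FPKM (replicate 2), with the nearest at 9.298 FPKM, a gap of 0.884 of the range.

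With its sign kept, the Ednrb-/- minus WT difference in trunk was above that in caudal libraries by the interaction test for Hoxb4 (0.52), Hoxb6 (0.389) and Hoxb9 (0.75, log2). The trunk and caudal differences were 0.412 and -0.108 for Hoxb4, 0.095 and -0.293 for Hoxb6, and 0.326 and -0.423 for Hoxb9. In size, those of Hoxb6 and Hoxb9 were thus larger in the caudal region. With WT caudal replicate 2 left out, 6 members were called in that test.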

How the results depend on the processing

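Of 1020 alternative values of single Hoxb genes, 918 kept their direction and side of the threshold, 63 lost and 14 gained a call, and 25 changed sign, 0 of them called. With no filter, 1 Hoxb gene was called between genotypes in the trunk (against 3), 2 between regions in WT (against 4) and 0 in the interaction (limma, against 3). At an unadjusted p under 0.05 the interaction had 7, with no share over all genes counted at that threshold. Many more genes near 0 enter the fit with no filter. The count between regions in WT was 2 with only the groups compared and 2 without the 3 libraries with Xist and Ddx3y. The interaction count was 5 with TPM scaling, 5 with voom, 5 without those 3 libraries, and 1 to 6 with 1 library left out. The cause of these shifts was not tested. With the replicate block, Hoxb3 gained (adjusted p = 0.0327) and Hoxb4 lost (0.0566) the interaction call, and the block changed no other call. Correlations of same-numbered libraries were -0.08 to 0.11, with 1 of 16 over 0.1, so no pairing by replicate number was seen. Low correlations alone cannot exclude that same-numbered trunk and caudal libraries share embryos, which the sources used here do not state. For WT replicate 4, Xist and Ddx3y were at 147.8 and 0.12 FPKM in trunk, against 0.82 and 18.3 FPKM in caudal. For Ednrb-/- replicate 2 they were at 135.4 and 0.98 FPKM in trunk, against 0.25 and 17.4 FPKM in caudal. In these cases the same number did not mark the same single embryo.

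Signs changed for small differences. Hoxb5 in the trunk genotype comparison was -0.007 with TPM scaling and -0.018 with voom. With quantile normalization, Hoxb2 was 0.015 in trunk, 0.017 in caudal and -0.002 in the interaction. Without the 3 libraries, Hoxb7 was 0.013 between caudal genotypes and Hoxb5 -0.066 between WT regions. With 1 library left out, trunk genotype differences ran from -0.093 to 0.024 for Hoxb2, -0.021 to 0.083 for Hoxb5 and -0.032 to 0.151 for Hoxb8. Caudal genotype differences ran from -0.132 to 0.008 for Hoxb2 and -0.049 to 0.044 for Hoxb7. WT region differences ran from -0.066 to 0.075 for Hoxb5 and -0.131 to 0.013 for Hoxb3, and the Hoxb2 interaction from -0.044 to 0.1. The interaction cannot be fitted with only 2 groups, and the planned test of members below the filter was not needed because all 10 passed. Hoxb1 in the WT trunk, with 100 to 125 reads, is the member that depth limits most outside Hoxb13.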
